A study of Mus musculus with 6 samples.

Results

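The genes described here encode the matrix metalloproteases (Mmp), the ADAMTS proteases with their ADAMTS-like relatives (Adamts) and the tissue inhibitors of metalloproteases (Timp). They were taken by symbol from the protein-coding genes of the GENCODE M21 annotation of GRCm38, and their measured levels played no part in the choice. The rule found 50 genes among the 46603 identifiers of the count tables, made up of 22 Mmp, 24 Adamts and 4 Timp genes. RNA was sequenced from visceral fat of the abdomen of untreated C57/Bl6 mice, 18 months old in both groups. One group of 3 libraries came from mice that lack nuclear myosin 1 (NM1 KO), and the other group of 3 libraries came from wild-type mice (WT). Nuclear myosin 1 is a nuclear form of the motor protein encoded by Myo1c. The labels do not say which part of the locus was altered, whether the loss is limited to some cells, or whether 1 replicate stands for 1 mouse. The p-values therefore reflect the spread among these 6 libraries only, and that spread may be technical.

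Matrix metalloproteases are zinc enzymes that are made with an inhibitory prodomain and, once activated, cut collagens, elastin and other proteins outside the cell. ADAMTS enzymes are secreted relatives with thrombospondin repeats, which cut proteoglycans and trim procollagens, while ADAMTS-like proteins have the repeats but no protease domain. TIMPs bind the active site of these enzymes and block it. In fat, where each adipocyte lies in a basement membrane and a collagen mesh, these proteins take part in the remodelling that goes with growth of the depot.

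Library totals lay between 27525446 and 33537818 counts in NM1 KO and between 24677758 and 31228723 in WT. Levels are counts per 1e6 counts (CPM) on scaled library sizes, and levels of different genes are compared only per kb of exon. Myo1c had 452, 696.5 and 551 CPM in NM1 KO replicates 1 to 3 and 801, 759 and 801 CPM in WT replicates 1 to 3 (adjusted p = 0.151 by edgeR), and this count over all isoforms of the locus does not check the knockout. A positive log2 fold change means more RNA in NM1 KO than in WT, its SE follows it, and called genes are those whose edgeR quasi-likelihood p, adjusted over all 15828 genes tested, was under 0.05. The number of genes called depended on each library. It was 673 with all 6, between 1 and 244 when NM1 KO replicate 1 or 3 or any WT library was left out, and 1654 when NM1 KO replicate 2 was left out.

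Of the 50 genes, 38 passed the filter on low counts and 12 did not, 8 of them Mmp and 4 Adamts. edgeR called 3 of the 38, or 7.89%, beside 4.25% of all genes tested (2.79% higher and 1.47% lower), a count too small to be read as particular to these families. Adamts12 rose in NM1 KO, and Mmp9 and Adamtsl1 fell. A further 14 had an unadjusted p under 0.05 without being called, which makes 17 of 38 or 44.7% with the called ones, beside 23.7% of all genes tested. Of these 17, 12 had higher and 5 had lower values in NM1 KO. They are 31.6% and 13.2% of the 38, beside 13% and 10.8% of all genes tested. The CPM ranges of NM1 KO and WT did not overlap for 13 of the 38, or 34.2%, beside 29.9% of all genes tested.

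The 14 Mmp genes tested had a median log2 fold change of 0.52, with 10 positive and 4 negative, where 49.7% of all genes tested were positive. The 20 Adamts genes had a median of -0.00041, with 10 positive and 10 negative. The 4 Timp genes had a median of -0.21, with 1 positive and 3 negative, and the median over all genes tested was -0.0021. Without WT replicate 2 the medians were 0.32 for Mmp, 0.24 for Adamts and -0.17 for Timp. The medians describe genes that passed the filter and were not tested as lists.

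**Figure D1:**
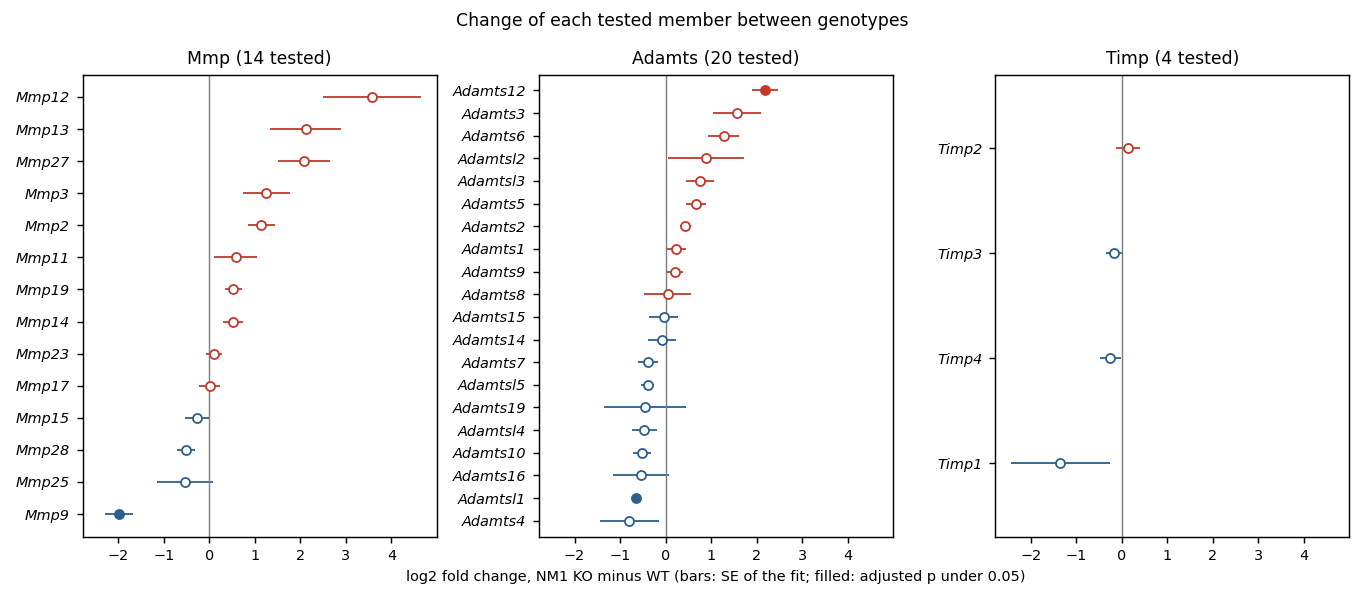
Log2 fold change of each tested member, NM1 KO minus WT, with the SE of the edgeR fit, in 3 panels by family. Filled points mark Adamts12, Mmp9 and Adamtsl1, which were called, and open points the members that were not.

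Summed per kb of exon, Mmp transcripts reached 317, 286 and 232 CPM per kb in NM1 KO replicates 1 to 3 and 198, 126 and 147 CPM per kb in WT replicates 1 to 3. The ranges of the groups did not overlap. Without Mmp12 the Mmp sums were 201, 219 and 187 CPM per kb in NM1 KO and 182, 125 and 145 CPM per kb in WT, and the groups were still apart. Adamts transcripts summed to 156, 160 and 161 CPM per kb in NM1 KO and to 148, 120 and 142 CPM per kb in WT. Timp transcripts summed to 411, 531 and 479 CPM per kb in NM1 KO and to 521, 409 and 528 CPM per kb in WT, with ranges that overlapped widely. The ratio of the Timp sum to the Mmp sum was 1.30, 1.86 and 2.06 in NM1 KO and 2.63, 3.24 and 3.60 in WT, so every NM1 KO library lay below every WT library. Leaving Mmp12 out of the Mmp sum gave ratios of 2.04 to 2.57 in NM1 KO and 2.87 to 3.63 in WT. On library totals without scaling factors, the Mmp and Adamts sums were still apart and the Timp sums overlapped. The margins were narrow for Adamts and for Mmp without Mmp12, at 156 against 150.0 and 186 against 184 CPM per kb for the lowest NM1 KO and the highest WT library on those totals. Single genes weighed on these sums. Mmp2 made up 22.6, 25.1 and 24.6% of the Mmp sum in NM1 KO replicates 1 to 3 and 22.1, 15.0 and 19.3% in WT replicates 1 to 3. Adamts5 made up 41.2, 29.4 and 37.8% of the Adamts sum in NM1 KO and 30.6, 22.4 and 25.7% in WT. Timp2 weighed most, with 78.7, 75.1 and 72.0% of the Timp sum in NM1 KO and 73.5, 48.4 and 74.7% in WT. Without Timp2 the Timp sums were 87.8, 132 and 134 CPM per kb in NM1 KO and 138, 211 and 133 CPM per kb in WT, with overlap. The ratio to the Mmp sum was not formed without Timp2. Sums without Mmp2 or Adamts5 were not formed, so groups that lie apart do not show a shift across a whole family. These sums add transcripts of secreted, membrane-bound, inhibitory and latent proteins, and no test was made on them.

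**Figure D2:**
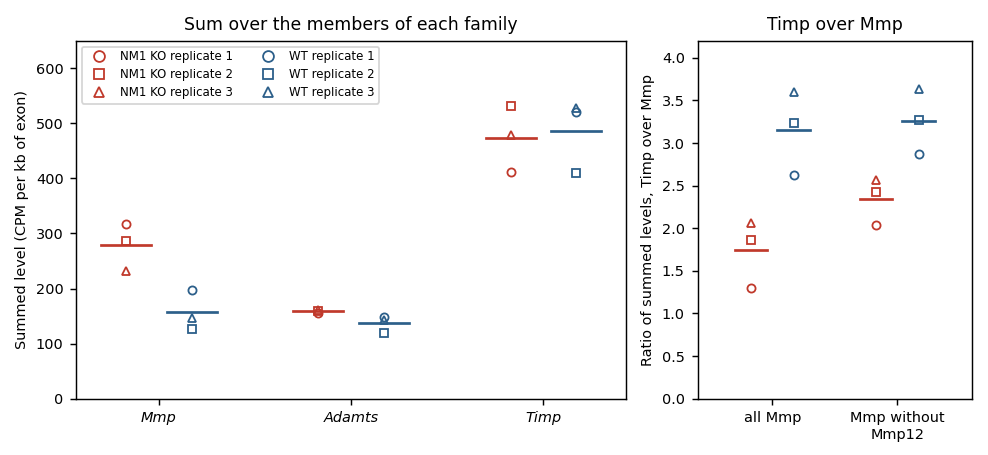
Summed level of each family per library in CPM per kb of exon (left), and the ratio of the Timp sum to the Mmp sum with and without Mmp12 (right), with points for libraries and lines for group means. NM1 KO libraries lie above WT libraries for Mmp and Adamts, overlap with them for Timp, and lie below them for both ratios.

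The gelatinases Mmp2 and Mmp9, which cut denatured collagen and basement membrane, lay on opposite sides. Mmp9 (ENSMUSG00000017737, chromosome 2, 164940780 to 164955850), gelatinase B, had 8.08, 16.9 and 11.7 CPM in NM1 KO replicates 1 to 3 and 43.9, 37.4 and 64.5 CPM in WT replicates 1 to 3. The highest NM1 KO library lay below the lowest WT library by more than a factor of 2. Mmp9 fell by 1.99 ± 0.31 on the log2 scale (edgeR adjusted p = 0.0270). The call held without NM1 KO replicate 1 (adjusted p = 0.0441) or 2 (adjusted p = 0.0163). It was lost in edgeR's fit without any one of NM1 KO replicate 3 (adjusted p = 0.0891), WT replicate 1 (adjusted p = 0.0747), WT replicate 2 (adjusted p = 0.0697) and WT replicate 3 (adjusted p = 0.0946), with log2 fold changes between -2.30 and -1.74 over the 6 removals.

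Neutrophils store gelatinase B, and their markers are set beside Mmp9. Of 12 neutrophil markers 6 passed the filter, none was called by edgeR or limma-voom, and DESeq2 called 2 lower. At an unadjusted p under 0.05 in edgeR's fit, 3 of the 6 (50.0%) were lower in NM1 KO and none higher, beside 10.8% of all genes tested with lower values. The 12 markers summed to 26.7 to 39.9 CPM in NM1 KO and 21.9, 150.1 and 33.9 CPM in WT replicates 1 to 3. Among the WT libraries Mmp9 was lowest in replicate 2, at 37.4 CPM, where this sum was highest. The sum in WT replicate 2 was made up mostly of Lcn2 at 87.5 CPM and Csf3r at 26.1 CPM. Retnlg at 12.1 CPM, S100a9 at 8.41 CPM and Cxcr2 at 5.72 CPM were also highest in that library. S100a8 had 8.73 CPM there and was highest in NM1 KO replicate 1, at 13.6 CPM. Elane had 0.418 to 0.510 CPM in NM1 KO and 0.703 to 1.57 CPM in WT, and Mpo at most 0.146 CPM in any library. The granule genes Camp, Ngp and Ltf had 0 counts in WT replicate 2 and at most 0.214 CPM in any library. The defining marker Ly6g had 0 counts in every NM1 KO library and in WT replicates 2 and 3, and 0.148 CPM in WT replicate 1. Mmp8, the neutrophil collagenase, stayed at or below 0.161 CPM in every library. Mmp25, a membrane-anchored protease of leukocytes, had a log2 fold change of -0.54 ± 0.61 and its highest value, 1.82 CPM, in WT replicate 2. The part of neutrophil RNA in the fall of Mmp9 was not tested. In bulk tissue, fewer cells of a type and less RNA per cell cannot be told apart.

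Mmp2 (ENSMUSG00000031740, chromosome 8, 92827291 to 92853420), gelatinase A of stromal cells, had the highest Mmp level per length, with 66.9 ± 8.41 CPM per kb in NM1 KO and 30.3 ± 12.6 CPM per kb in WT (SD, n = 3 each). By library it had 242, 242 and 193 CPM in NM1 KO and 148, 63.5 and 95.3 CPM in WT. The groups did not overlap, but the fold change of 1.14 ± 0.29 on the log2 scale was not called (edgeR adjusted p = 0.0744). DESeq2 gave an adjusted p of 0.00275, and edgeR after removal of the GC and length trends of the libraries gave 0.0469. Mmp14, the membrane-type protease that activates pro-Mmp2 at the cell surface, had 203, 203 and 177 CPM in NM1 KO and 186, 99.6 and 122 CPM in WT. WT replicate 1 lay above the lowest NM1 KO library, and Mmp14 was not called (log2 0.52 ± 0.22, edgeR adjusted p = 0.217).

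Among the other membrane-type enzymes none was called by edgeR or had an unadjusted p under 0.05. Mmp15 had a log2 fold change of -0.26 ± 0.27, and Mmp17 one of 0.0040 ± 0.23 with 2.84 to 3.14 CPM in NM1 KO and 2.70 to 3.29 CPM in WT. Mmp16 and Mmp24 did not pass the filter.

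Mmp12, macrophage elastase, had the largest fold change of the 38 and a wide spread. Mmp12 (ENSMUSG00000049723, chromosome 9, 7344381 to 7369499) had 837, 481 and 328 CPM in NM1 KO replicates 1 to 3 and 120, 7.99 and 10.9 CPM in WT replicates 1 to 3. All NM1 KO libraries lay above all WT libraries, but WT replicate 1 stood more than 10 times above the other WT libraries. The log2 fold change of 3.57 ± 1.07 was not called (edgeR adjusted p = 0.107), while DESeq2 (adjusted p = 0.0316) and limma-voom with quality weights (adjusted p = 0.0428) called it. Without WT replicate 1 it was 5.86 and edgeR called it (adjusted p = 0.0473). The 5 other removals left it uncalled, with log2 fold changes between 3.07 and 3.84 and edgeR adjusted p between 0.128 and 0.267.

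Several macrophage markers were higher beside Mmp12. Of 12 such markers, all of which passed the filter, edgeR called 5 higher (41.7%, beside 2.79% of all genes tested) and none lower. The 12 markers summed to 3915 to 5252 CPM in NM1 KO and 2019 to 2588 CPM in WT. Gpnmb, a glycoprotein of lipid-laden macrophages, had 1733, 702 and 589 CPM in NM1 KO and 136, 20.2 and 37.8 CPM in WT. Like Mmp12, it was highest in replicate 1 of each group. The summed markers in WT were highest in replicate 3 instead, at 2588 CPM, against 2313 CPM in WT replicate 1. The part of macrophage RNA in the Mmp12 values was not tested.

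**Figure D3:**
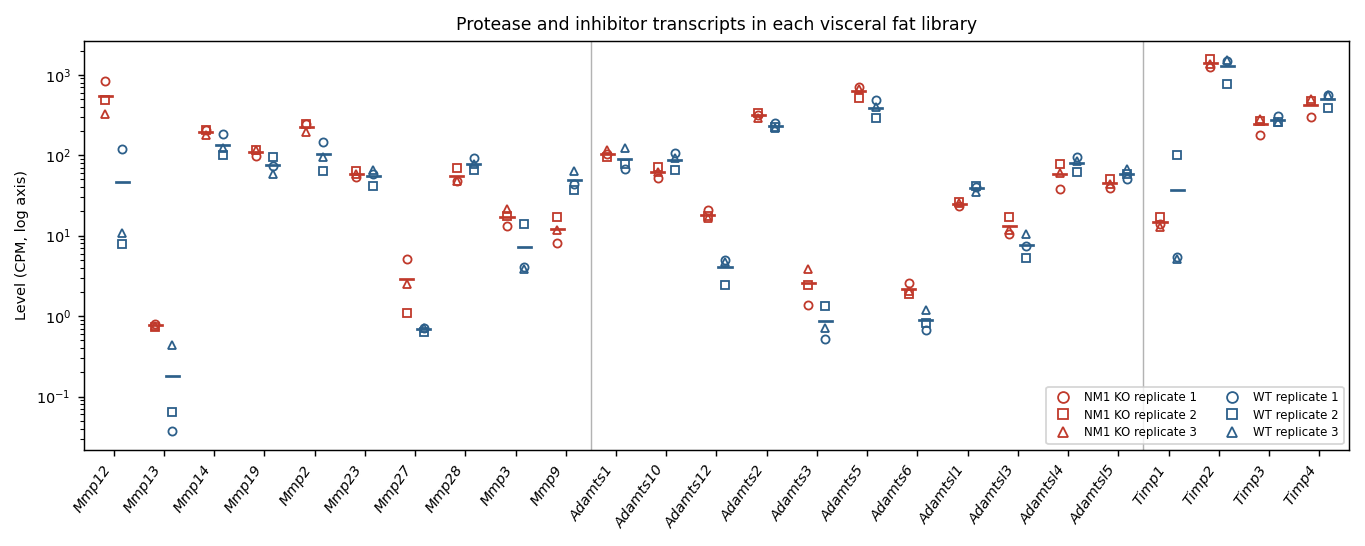
Level of each named member in every library, in CPM on a log axis, with NM1 KO left of WT, points for libraries and short lines for group means. Mmp9 and Adamts12 have groups far apart in opposite directions, while Mmp12 in WT and Timp1 in WT each have 1 library far above the other 2.

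Mmp12 lies in a cluster of Mmp genes on chromosome 9, and its neighbours were examined with it because they share a short stretch of the genome. The cluster holds 9 of the 22 Mmp members within 427 kb (7272514 to 7699585). This grouping by position was not among the lists written for the families, and it is a description only. Of the 9 genes, 4 passed the filter, and none was called by edgeR. DESeq2 called 2 higher and limma-voom 2, beside 7.66% and 5.93% of all genes called higher by these tools. All 4 had positive log2 fold changes with an unadjusted p under 0.05 in edgeR's fit, beside 13% of all genes tested. Mmp13, the main collagenase of rodents, had 25, 24 and 21 counts in NM1 KO and 1, 2 and 11 counts in WT, or 0.732 to 0.805 CPM against 0.0370 to 0.441 CPM (log2 2.11 ± 0.78, adjusted p = 0.162). All 3 NM1 KO libraries but only 1 WT library of Mmp13 reached the filter's minimum of 0.341 CPM. Mmp27, a little studied stromelysin-like enzyme, had 5.12, 1.10 and 2.51 CPM in NM1 KO and 0.703, 0.639 and 0.721 CPM in WT (log2 2.08 ± 0.57, edgeR adjusted p = 0.0859). DESeq2 called Mmp27 higher (adjusted p = 0.00619), and so did edgeR without NM1 KO replicate 2 (log2 2.47, adjusted p = 0.0227). Without NM1 KO replicate 1 it was 1.40 on the log2 scale (adjusted p = 0.203), and the 4 other removals left Mmp27 uncalled by edgeR, with adjusted p between 0.171 and 0.223.

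Mmp3, stromelysin 1, had 13.3, 17.4 and 21.2 CPM in NM1 KO and 4.03, 13.9 and 3.81 CPM in WT. WT replicate 2 lay above NM1 KO replicate 1, so the groups overlapped, and Mmp3 was not called by edgeR (log2 1.25 ± 0.51, adjusted p = 0.197), though limma-voom called it (adjusted p = 0.0298). The 5 other cluster genes were close to silent. Mmp20, an enzyme of tooth enamel, had 0 counts in all 6 libraries, which allows at most 0.0916 to 0.120 CPM. Mmp1b, Mmp7, Mmp8 and Mmp10 had at most 5 counts in any library.

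**Figure D4:**
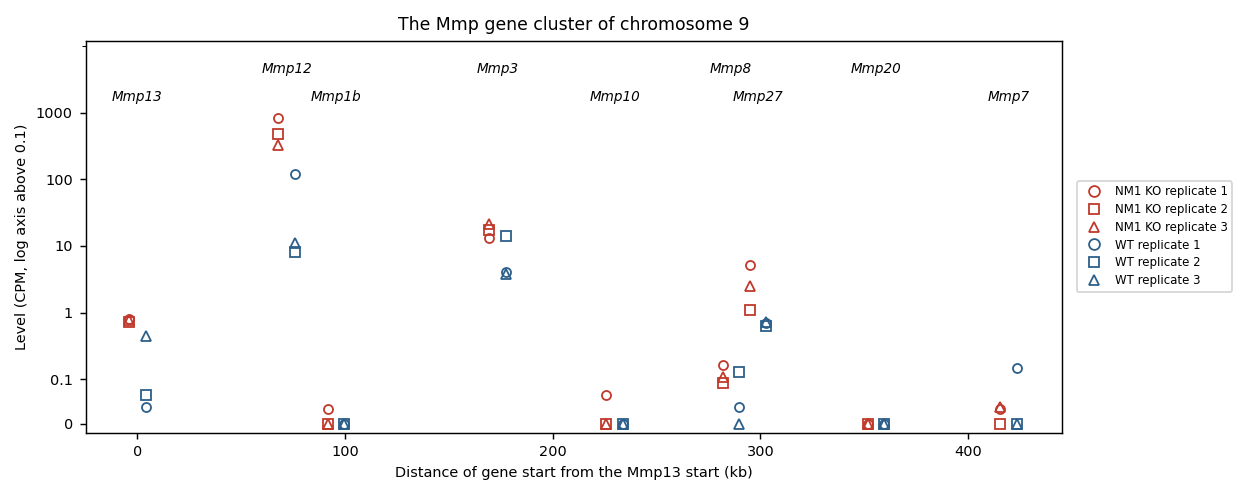
Levels of the 9 Mmp genes of the chromosome 9 cluster in each library (CPM, log axis above 0.1), placed by the distance of each gene's start from that of Mmp13 in kb. NM1 KO points lie above WT points for Mmp13, Mmp12 and Mmp27, overlap with them for Mmp3, and the other 5 genes stay below 0.2 CPM.

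Promoter sequences of the 4 tested cluster genes are shown because these genes lie in 1 cluster, with near-silent genes between some of them, and had values in the same direction. Each line gives 150 bases before and 30 bases from the start that RefSeq annotates on GRCm38.p6, all on the plus strand, and capitals mark matches to the AP-1 motif TGANTCA and to the TATA box TATAAA. Of 2 RefSeq starts of Mmp12, the downstream one is shown, chosen because it holds the motifs, and the other holds neither motif.
Mmp13, chr9:7272364-7272543: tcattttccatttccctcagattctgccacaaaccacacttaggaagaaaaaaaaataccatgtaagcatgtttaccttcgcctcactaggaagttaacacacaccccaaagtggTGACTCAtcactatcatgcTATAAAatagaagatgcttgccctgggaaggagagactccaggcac
Mmp12, chr9:7347224-7347403: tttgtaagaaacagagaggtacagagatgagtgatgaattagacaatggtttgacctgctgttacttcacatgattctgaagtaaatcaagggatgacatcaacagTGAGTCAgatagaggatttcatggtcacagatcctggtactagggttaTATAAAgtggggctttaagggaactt
Mmp3, chr9:7445672-7445851: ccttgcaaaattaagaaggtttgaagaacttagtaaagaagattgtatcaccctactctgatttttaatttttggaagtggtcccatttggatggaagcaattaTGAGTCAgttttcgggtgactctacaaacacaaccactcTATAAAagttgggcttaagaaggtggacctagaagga
Mmp27, chr9:7571246-7571425: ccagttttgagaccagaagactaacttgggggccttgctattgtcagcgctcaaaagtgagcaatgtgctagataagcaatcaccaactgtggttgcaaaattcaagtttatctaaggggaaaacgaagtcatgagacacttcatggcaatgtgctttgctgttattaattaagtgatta
Within windows of 300 bases searched on both strands, TGANTCA was found for 7 of the 9 cluster genes and for none of the 26 other members with a RefSeq promoter. Over all 32851 RefSeq promoter windows of this length, 7.81% held it. TATAAA was found for 8 of the 9 cluster genes and for 3 of the 26 others, beside 13.6% of all windows. The 2 motifs did not overlap in the lines above, and Mmp27 held neither in its window. Counted from the annotated start, TATAAA began at -16 in Mmp13, at -7 in Mmp3 and at 4, past the start, in Mmp12. The TATAAA match of Mmp8 lay on the minus strand. A match describes the letters and is not evidence of a site in use.

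Of the remaining Mmp genes none was called by edgeR. Mmp19, an enzyme of basement membrane proteins, had 98.2, 116 and 115 CPM in NM1 KO and 73.3, 96.2 and 59.0 CPM in WT, with groups just apart (log2 0.53 ± 0.18, edgeR adjusted p = 0.145), and limma-voom called it higher (adjusted p = 0.0429). Its exons share 22.3% of their bases with Tmem198b on the other strand, which had 10.8 to 16.8 CPM in NM1 KO and 21.0 to 23.0 CPM in WT, and no source used here gives the strand setting of the counting. Mmp28, epilysin, had 47.4, 68.8 and 47.8 CPM in NM1 KO and 93.1, 65.5 and 76.8 CPM in WT (log2 -0.52 ± 0.19, edgeR adjusted p = 0.165), and limma-voom called it lower (adjusted p = 0.0382). NM1 KO replicate 2 lay above WT replicate 2, and without NM1 KO replicate 2 edgeR called Mmp28 lower (log2 -0.72, adjusted p = 0.0413), while the 5 other removals left it uncalled (adjusted p between 0.172 and 0.395). Mmp28 shares 12% of its exonic bases with 1700020L24Rik on the other strand, which had 9.0 to 11.8 CPM in NM1 KO and 13.8 to 17.3 CPM in WT. Mmp23 had 53.7, 64.3 and 58.5 CPM in NM1 KO and 58.2, 40.9 and 66.0 CPM in WT, with overlap (log2 0.096 ± 0.18, edgeR adjusted p = 0.784). Mmp11, stromelysin 3, had a log2 fold change of 0.57 ± 0.47 with overlapping groups. Mmp21 did not pass the filter.

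Adamts12 was the called member with higher values in NM1 KO. It encodes a protease known to bind and cut the cartilage protein COMP. Adamts12 (ENSMUSG00000047497, chromosome 15, 11064790 to 11349231) had 20.8, 17.7 and 16.5 CPM in NM1 KO replicates 1 to 3 and 5.03, 2.43 and 4.65 CPM in WT replicates 1 to 3. The lowest NM1 KO library stood above 3 times the highest WT library. Adamts12 rose by a log2 of 2.19 ± 0.29 (edgeR adjusted p = 0.0186). The call held without NM1 KO replicate 1 (adjusted p = 0.0368) or 2 (adjusted p = 0.0180), and was lost in edgeR's fit without any one of NM1 KO replicate 3 (adjusted p = 0.0644), WT replicate 1 (adjusted p = 0.0556), WT replicate 2 (adjusted p = 0.0578) and WT replicate 3 (adjusted p = 0.0897). The log2 fold change lay between 1.92 and 2.38 over the 6 removals.

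The promoter of Adamts12 is shown as that of the one member that rose, in the same form as those of the cluster genes, and held neither motif in its window.
Adamts12, chr15:11064623-11064802: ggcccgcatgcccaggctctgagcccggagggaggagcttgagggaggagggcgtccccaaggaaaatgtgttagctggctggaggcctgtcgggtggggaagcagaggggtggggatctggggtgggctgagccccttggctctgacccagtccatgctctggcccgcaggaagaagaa
Per length Adamts12 stayed low, at 1.68 ± 0.202 CPM per kb in NM1 KO and 0.369 ± 0.129 CPM per kb in WT (SD, n = 3 each), rank 14 of the 24 Adamts genes. Adamts7, the other protease of its pair, had a log2 fold change of -0.39 ± 0.22 and was not called, with 7.47 to 9.80 CPM in NM1 KO and 9.14 to 14.3 CPM in WT. Their substrate Comp had 3.09 CPM in NM1 KO and 1.69 CPM in WT on average and was not called (edgeR adjusted p = 0.389). Of 10 fibroblast and progenitor markers, edgeR called 3 higher (30.0%, beside 2.79% of all genes tested) and none lower. Of the 10, 7 had positive log2 fold changes and 3 had negative ones, namely Dcn, Dpp4 and Pi16. The 10 markers summed to 6929.6 to 8591 CPM in NM1 KO and 4873 to 6508 CPM in WT. These sums were made up mostly of Col3a1, Col1a2, Dcn and Col1a1, which are also on the substrate list and were not called. The part of stromal RNA in the rise of Adamts12 was not tested.

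The proteoglycan-cleaving ADAMTS enzymes, known as aggrecanases for their action in cartilage, were led by Adamts5. Adamts5 had the highest Adamts level per length, at 57.4 ± 9.11 CPM per kb in NM1 KO and 36.2 ± 9.16 CPM per kb in WT (SD, n = 3 each). By library it had 694.5, 508 and 656 CPM in NM1 KO and 487, 289.9 and 394 CPM in WT. The groups were apart by a small gap, and Adamts5 was not called by edgeR (log2 0.67 ± 0.21, adjusted p = 0.122) but was by DESeq2 (adjusted p = 0.0395). After removal of GC and length trends it was 0.34 on the log2 scale (edgeR adjusted p = 0.274). Adamts1, which lies 53.1 kb from Adamts5 on chromosome 16, had 103, 96.2 and 116 CPM in NM1 KO and 67.8, 78.6 and 122 CPM in WT. WT replicate 3 was the highest of all 6, and Adamts1 was not called (log2 0.23 ± 0.22). Adamts4 had 2.61 to 2.81 CPM in NM1 KO and 2.85, 9.75 and 1.40 CPM in WT, so WT replicate 2 stood alone. Adamts8, Adamts9 and Adamts15 had log2 fold changes between -0.041 and 0.20, and Adamts20 did not pass the filter. Versican, encoded by Vcan, is a main substrate of this group outside cartilage, and was not called (log2 0.27 ± 0.39), while aggrecan, Acan, was too low to test.

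The procollagen N-propeptidases trim the amino ends of fibrillar collagens before fibrils form. Adamts2, second in level per length, had 314, 338 and 288 CPM in NM1 KO and 254, 226 and 216 CPM in WT. Every NM1 KO library lay above every WT library, with little spread in either group, yet the difference was not called by edgeR (log2 0.43 ± 0.11, adjusted p = 0.0799), though DESeq2 called it (adjusted p = 0.0136). Adamts3 had 1.38, 2.44 and 3.90 CPM in NM1 KO and 0.518, 1.34 and 0.721 CPM in WT (log2 1.57 ± 0.52, edgeR adjusted p = 0.129, DESeq2 adjusted p = 0.0348). Adamts14 had a log2 fold change of -0.081 ± 0.32.

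Adamts6 and Adamts10 are close homologues that act on fibrillin microfibrils, and they lay on opposite sides. Adamts6 had 2.57, 1.86 and 2.08 CPM in NM1 KO and 0.666, 0.831 and 1.20 CPM in WT, with groups apart (log2 1.27 ± 0.35, edgeR adjusted p = 0.0859, DESeq2 adjusted p = 0.0150). Adamts10 had 52.4, 71.5 and 61.2 CPM in NM1 KO and 106, 65.9 and 92.8 CPM in WT, with overlap at WT replicate 2 (log2 -0.51 ± 0.20, edgeR adjusted p = 0.174). Adamts16 (log2 -0.54 ± 0.61) and Adamts19 (log2 -0.46 ± 0.90) were not called, and Adamts17, Adamts18 and the von Willebrand factor-cleaving Adamts13 did not pass the filter.

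The ADAMTS-like proteins, which bind the matrix without cutting it, had 1 call. Adamtsl1 (ENSMUSG00000066113, chromosome 4, 85514172 to 86428385), or punctin, had 23.5, 26.2 and 25.2 CPM in NM1 KO replicates 1 to 3 and 40.5, 41.7 and 35.3 CPM in WT replicates 1 to 3. The groups were apart and each was tight. Adamtsl1 fell by 0.65 ± 0.11 on the log2 scale (edgeR adjusted p = 0.0312). The call held without NM1 KO replicate 2 (adjusted p = 0.0279) and was lost without any of the 5 other libraries in edgeR's fit, with adjusted p between 0.0933 and 0.101 and log2 fold changes between -0.73 and -0.59.

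Adamtsl3 had 10.6, 16.9 and 11.7 CPM in NM1 KO and 7.51, 5.21 and 10.6 CPM in WT (log2 0.76 ± 0.30, edgeR adjusted p = 0.188). WT replicate 3 lay just below NM1 KO replicate 1, and the groups did not overlap. Adamtsl4, which binds fibrillin, had 37.9, 77.0 and 60.0 CPM in NM1 KO and 95.7, 61.3 and 84.9 CPM in WT, with overlap (log2 -0.47 ± 0.27). Adamtsl5 had 39.4, 50.3 and 43.8 CPM in NM1 KO and 50.0, 58.2 and 67.8 CPM in WT, with overlap between NM1 KO replicate 2 and WT replicate 1 (log2 -0.40 ± 0.15, edgeR adjusted p = 0.166). Adamtsl2, a regulator of microfibrils, had 28.8 CPM in NM1 KO replicate 2 and between 2.20 and 10.2 CPM in the other libraries.

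None of the 4 TIMPs was called by edgeR or limma-voom, and none had an unadjusted p under 0.05 in edgeR's fit. DESeq2 called none of the 3 to which it gave an adjusted p, and gave none to Timp1. Timp2 led the family in level per length, at 356 ± 38.9 CPM per kb in NM1 KO and 325 ± 110 CPM per kb in WT (SD, n = 3 each). It had 1259.8, 1554 and 1344 CPM in NM1 KO and 1493, 771 and 1535.5 CPM in WT, so WT replicate 2 was the lowest of all (log2 0.13 ± 0.27, -0.13 without that library). Timp4, the TIMP most restricted to fat, heart and brain, had 296, 468 and 500.3 CPM in NM1 KO and 556, 383 and 566 CPM in WT (log2 -0.25 ± 0.24). Timp3, which is held in the matrix and also blocks ADAMTS enzymes, had 179.7, 270.0 and 283 CPM in NM1 KO and 306, 258 and 258 CPM in WT (log2 -0.17 ± 0.19). NM1 KO replicate 1 was the lowest library for both Timp3 and Timp4. Timp3 shares 21.3% of its exonic bases with Syn3 on the other strand, a gene at no more than 1.29 CPM in any library.

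Timp1, the inducible TIMP, rested on 1 library. It had 13.8, 17.3 and 12.9 CPM in NM1 KO and 5.51, 101 and 5.09 CPM in WT. WT replicate 2 stood far above every other library, while the other two WT libraries lay below all of NM1 KO. The log2 fold change was -1.35 ± 1.08 with all 6 libraries (edgeR adjusted p = 0.493) and 1.47 without WT replicate 2 (adjusted p = 0.0614). The summed neutrophil markers, Adamts4 and Mmp25 were also highest in WT replicate 2. Timp1 lies within the synapsin gene Syn1 on the opposite strand, as Timp3 lies within Syn3 and Timp4 within Syn2.

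**Figure D5:**
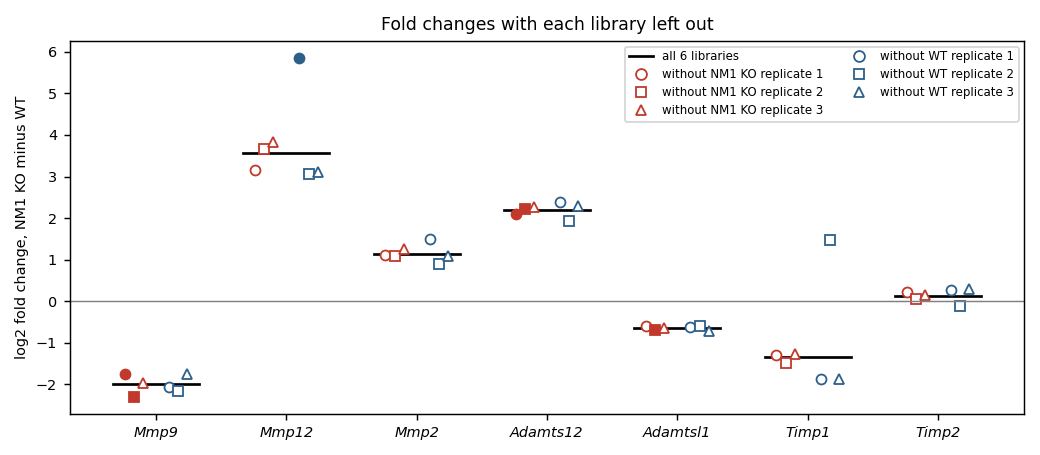
Log2 fold change, NM1 KO minus WT, of 7 members with all 6 libraries (black line) and with each library left out (points, filled where the edgeR adjusted p was under 0.05). Mmp9, Adamts12 and Adamtsl1 stay on their side of 0 in each removal, Mmp12 reaches 5.86 without WT replicate 1, and Timp1 and Timp2 change sign without WT replicate 2.

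GC content went along with the members' fold changes. Across the 38 tested members, Spearman's rho between the log2 fold change and GC content was -0.54, against -0.37 across 13933 protein-coding genes tested. The libraries themselves differed in GC bias. The rank correlation across genes between GC content and a library's deviation from the mean log2 level was -0.396, 0.248 and -0.425 in NM1 KO replicates 1 to 3 and 0.314, 0.240 and 0.117 in WT replicates 1 to 3. NM1 KO replicates 1 and 3 thus stood apart, and NM1 KO replicate 2, whose removal raised the number of genes called to 1654, lay among the WT libraries. The part of this GC bias in the number of calls was not tested. Genes share libraries and are not independent replicates, so these values are descriptions. Of members with large positive values, Mmp12 had 40.3% GC and Adamts12 46.8%, while Adamtsl5 and Adamts10, with negative values, had 58.0% and 58.5%. Mmp9 at 55.2% and Mmp2 at 55.3% had nearly the same GC content and opposite fold changes. After removal of the GC and length trends of the libraries, rho was -0.39 across the members and -0.0465 across the protein-coding genes tested. With the trends removed, Adamts12 (log2 1.92), Mmp9 (log2 -1.86) and Adamtsl1 (log2 -0.78) were still called by edgeR, and Mmp2 (log2 1.30) was called as well. The same step left Adamts5 at 0.34, Mmp28 at -0.34 and Adamtsl5 at -0.23 on the log2 scale, nearer to 0 than before, and none of these was called by edgeR (adjusted p = 0.274, 0.221 and 0.372).

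Other genes of the protease system were taken from lists of activators, relatives and substrates. Of 21 tested genes that activate or clear matrix proteases, edgeR called 1 higher and none lower, with 4 higher and 1 lower at an unadjusted p under 0.05. The called gene was Mrc2, the collagen uptake receptor Endo180, with 252, 242 and 174 CPM in NM1 KO and 66.3, 49.3 and 35.9 CPM in WT (log2 2.14 ± 0.25, adjusted p = 0.0182). ADAM proteins are membrane-bound relatives of these proteases, and some of them shed surface proteins. Of 11 tested ADAM genes, edgeR called 2 higher (18.2%) and none lower, beside 2.79% and 1.47% of all genes tested. At an unadjusted p under 0.05 in edgeR's fit, 6 were higher (54.5%) and 1 was lower (9.09%), beside 13% and 10.8% of all genes tested. DESeq2 called 5 higher and 1 lower, beside 7.66% and 5.14% of all genes called higher and lower by DESeq2. Adam8, a leukocyte ADAM, had 134, 94.0 and 74.3 CPM in NM1 KO and 38.3, 21.7 and 14.9 CPM in WT (log2 2.01 ± 0.37, edgeR adjusted p = 0.0350). Adam17, the enzyme that sheds TNF, rose by a log2 of 0.57 ± 0.11 (edgeR adjusted p = 0.0395).

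Of 25 tested substrates, edgeR called 1 higher and 1 lower (4.0% each), beside 2.79% and 1.47% of all genes tested. The median log2 fold change of the substrates was 0.41. Col5a2, a chain of type V collagen, had 336, 398 and 328 CPM in NM1 KO and 212, 188 and 183 CPM in WT (log2 0.86 ± 0.12, edgeR adjusted p = 0.0217). Fbln1, fibulin-1, which is a known cofactor of Adamts1, had 110, 108 and 138 CPM in NM1 KO and 214, 194 and 259.9 CPM in WT, and fell by 0.91 ± 0.15 on the log2 scale (edgeR adjusted p = 0.0294). Of the other marker lists, 8 of 12 endothelial, 1 of 10 pericyte and smooth muscle and 2 of 10 mesothelial markers were called lower by edgeR. That is beside 1.47% of all genes tested, and none of these markers was called higher. No adipocyte, lymphocyte or mast cell marker was called by edgeR, with 4, 2 and 1 of them at an unadjusted p under 0.05, while DESeq2 called 4, 1 and 1 and limma-voom called 2, 0 and 0 of them. The adipocyte markers summed to 23360 to 28848 CPM in NM1 KO and 26954 to 29647 CPM in WT, so the labelled tissue carried its defining transcripts in each library. Of these markers 8 had negative and 2 had positive log2 fold changes. Lep was among the positive ones, at 4346 CPM in NM1 KO and 1946 CPM in WT on average. The overlap of the sums therefore does not mean that the single markers were unchanged.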

How the data were processed

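Per the labels, visceral fat RNA went into NEBNext Ultra II RNA libraries, which were read on a NextSeq. The authors deposited 1 table of raw read counts per gene for each of the 6 libraries. The submitters' processing notes name Trimmomatic 0.36, FastQC, HISAT2 2.0.4, SAMtools 0.1.19, HTSeq and the build GRCm38/mm10. No source used here gives the annotation, counting options or strand setting, so reads of genes that overlap on opposite strands may not be told apart.

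Identifiers were matched to GENCODE M21 (46091 of 46603 matched, and the others held 0.0333% of counts), and 26398 had a count. No entry named no gene. Genotypes were compared with edgeR 4.0.16 in R 4.3.3, with the default filter (0.341 CPM in at least 3 libraries), TMM scaling and the robust two-sided quasi-likelihood test, adjusted by Benjamini-Hochberg over all genes tested. The SE is the size of the log2 fold change divided by the root of its F. Levels per length used the union of M21 exons. A common biological coefficient of variation of 25.3% limited the precision of well-counted genes, and limits from a count of 0 cover counting error only. Replicates of 1 group differed beyond sampling noise, and none was counted as a copy of another.

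Values in every library are given for Mmp9, Adamts12, the TIMPs, every other called member, members with an unadjusted p under 0.05 and the 5 highest per kb of the Mmp and of the Adamts family. From pathway lists the called genes are named. Comp, Vcan, Acan, Gpnmb and the individual neutrophil markers were added with their values known. Members and lists were chosen with earlier results of these data known, so no list was tested. Promoters came from RefSeq on GRCm38.p6, in which 35 of the 50 members matched.

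In simulated data with 15571 genes and 200 changed, the test for NM1 KO against WT recovered 38% of 2-fold and 69% of 4-fold changes, and 7.76% of its calls were false. Alternatives were other scalings and filters, DESeq2 1.42.0, limma-voom 3.58.1 with sample quality weights, a block on replicate number, removal of GC and length trends within libraries, and each library left out. Figures were drawn with matplotlib 3.10.9.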

Additional observations from a re-analysis of the deposited data

How the results depend on the processing

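Over all genes, edgeR called 441 as higher in NM1 KO and 232 as lower. DESeq2 called 1313 and 880, limma-voom with quality weights 939 and 666, and the block on replicate number 258 and 78. With 1 library left out, between 1 and 1181 genes were called higher and between 0 and 473 lower. Of the members, 1 was called higher and 2 lower. The number higher was 2 without a filter and 2 with the GC and length trend removed, 8 by DESeq2, 4 by limma-voom and 0 to 2 with 1 library left out, and the number lower was 0 under the block and 0 to 3 with 1 library left out. Of the Mmp genes, 0 were called higher in edgeR, 1 without a filter and 1 with the trend removed, 3 by DESeq2, 3 by limma-voom and 0 to 1 with 1 library left out. Those lower numbered 1, against 2 by limma-voom, 0 under the block and 0 to 2 with 1 library left out. Of the Adamts genes, DESeq2 called 5 higher, and with 1 library left out 0 to 1 were called higher and 0 to 1 lower, with 0 lower under the block.

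The median log2 fold change by limma-voom was 0.207 for all members, 0.371 for Mmp and 0.185 for Adamts. With 1 library left out it lay between -0.0261 and 0.223 for all members, 0.315 and 0.497 for Mmp, -0.165 and 0.244 for Adamts, and -0.335 and -0.00129 for Timp. Sign changes were found for Timp1 (0.562 by limma-voom, 0.111 under the block, and -1.88 to 1.47 with 1 library left out, the highest without WT replicate 2), Timp2 (-0.00493 by limma-voom, -0.127 to 0.287 with 1 library left out, the lowest without WT replicate 2), Mmp23 (-0.0773 to 0.241, the lowest without WT replicate 2) and Timp3 (-0.281 to 0.0311, the highest without NM1 KO replicate 1). Adamts12, Mmp9 and Adamtsl1 kept their direction under every alternative and stayed called under each scaling, filter and tool run, the protein-coding table and the GC and length fit. The cause of these differences was not tested.

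Deviations of same-numbered libraries from their group means had correlations of -0.0388, -0.0136 and 0.245, with only NM1 KO replicate 3 closest to its own number. The labels state no pairs, and the main fit used none. Correlations over 3 libraries per group cannot exclude that same-numbered libraries were handled together. Under the replicate block Adamts12 stayed called (log2 2.24, edgeR adjusted p = 0.0368), while Mmp9 (log2 -2.02, adjusted p = 0.0525) and Adamtsl1 (log2 -0.648, adjusted p = 0.0632) did not. Members under about 1 CPM, such as Mmp13, rested on few counts per library.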
